A study of Mus musculus with 19 samples.

Results

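Car4, Blnk, H60b, Tbr1 and Pmaip1 are 5 protein-coding genes of the mouse, among 51789 genes counted in 19 RNA sequencing libraries of dorsal hippocampus. They were chosen by their measured counts: each was strongly higher in tTA+ than in tTA- mice of experiment 2, and in edgeR they hold ranks 1 to 5 by p among the genes higher in tTA+. Their tTA difference in that experiment is therefore given as a description, without a test. The tests below concern other contrasts, which the choice did not use, and other genes.

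The tetracycline transactivator tTA is a transgene product that switches on genes placed behind a tet promoter. DN is a second transgene, here a dominant-negative form of the Nr4A nuclear receptors, a group of transcription factors induced by neuronal activity. All mice were male C57BL/6J aged 2 to 4 months, and the study asked about memory consolidation and chaperones of the endoplasmic reticulum. In experiment 1 every mouse was tTA+ and had undergone SOR, an exposure that the labels give only as an abbreviation: 5 were tTA+/DN+ (the DN group) and 6 were tTA+/DN- controls. In experiment 2 every mouse was DN-. Its homecage replicates 1 and 2 and its SOR replicate 1 were tTA-/DN-, while its homecage replicates 3 and 4 and its SOR replicates 2, 3 and 4 were tTA+/DN-. Thus 16 libraries were tTA+ and 3 were tTA-. No library combined tTA- with DN or came from experiment 1 without tTA. The promoter that drives tTA and its site of insertion are not given in the sources used here, so the cells that carry active tTA were not defined. In bulk tissue, fewer cells of a type and less RNA per cell cannot be told apart.

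The 5 genes have unlike roles. Car4 encodes a carbonic anhydrase held on the outer cell surface by a lipid anchor, where it interconverts carbon dioxide and bicarbonate. Blnk encodes an adaptor that links the kinase Syk to downstream enzymes in B cells, and it is also expressed in myeloid cells. H60b encodes a ligand of NKG2D, an activating receptor of natural killer and T cells. Tbr1 encodes a T-box transcription factor of glutamatergic projection neurons of the forebrain. Pmaip1 encodes Noxa, a BH3-only protein of the BCL2 family that promotes cell death and is a classic target of p53.

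The genes lie on 5 different chromosomes of GRCm38, in the GENCODE M21 annotation. Car4 (ENSMUSG00000000805.18) spans bases 84957786 to 84966044 of chromosome 11 on the plus strand, with 18 annotated exons. Blnk (ENSMUSG00000061132.13) spans bases 40928927 to 40994535 of chromosome 19 on the minus strand, with 20 exons. H60b (ENSMUSG00000075297.10) spans bases 22158586 to 22288849 of chromosome 10 on the plus strand, with 7 exons. Tbr1 (ENSMUSG00000035033.15) spans bases 61802930 to 61814114 of chromosome 2 on the plus strand, with 12 exons.

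RefSeq promoter sequences (GRCm38.p6) were matched for 3 of the 5 genes, Car4, Blnk and Tbr1. They are shown because these genes were high in the same libraries, so that their proximal sequences can be compared. Each window was 250 bases before to 50 bases after the RefSeq start. That start lies inside the GENCODE span given above for Blnk and Tbr1 and just before it for Car4, so positions relative to a start hold for the RefSeq start only. The 250 bases before the start are printed 5′ to 3′ on the strand of the gene, from chr11:84957504-84957753, chr19:40994222-40994471 and chr2:61804203-61804452. Capitals mark the 1 motif match that falls in them.
Car4: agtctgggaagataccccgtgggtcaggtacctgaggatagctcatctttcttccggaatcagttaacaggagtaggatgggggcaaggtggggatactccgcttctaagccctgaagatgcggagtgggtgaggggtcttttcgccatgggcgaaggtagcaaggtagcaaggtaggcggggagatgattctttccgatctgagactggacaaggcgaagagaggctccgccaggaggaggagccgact
Blnk: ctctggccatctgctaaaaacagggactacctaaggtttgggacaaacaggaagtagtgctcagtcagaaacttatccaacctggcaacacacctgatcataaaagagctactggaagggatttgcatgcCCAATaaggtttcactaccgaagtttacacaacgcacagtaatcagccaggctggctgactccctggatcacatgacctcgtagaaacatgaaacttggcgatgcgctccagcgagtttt
Tbr1: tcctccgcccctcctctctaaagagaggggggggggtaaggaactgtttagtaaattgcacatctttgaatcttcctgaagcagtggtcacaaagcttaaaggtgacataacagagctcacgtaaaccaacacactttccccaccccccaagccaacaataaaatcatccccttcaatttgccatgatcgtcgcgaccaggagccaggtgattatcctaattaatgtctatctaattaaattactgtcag
Over the whole windows the GC content was 57.3% for Car4, 50% for Blnk and 46% for Tbr1, against a median of 52.7% over the 32851 promoters in the table. Each motif was searched on both strands as fixed letters. The NBRE bound by Nr4a receptors (AAAGGTCA, in 1.51% of all promoters), a T-box core (AGGTGTGA, 1.28%), the cyclic AMP response element (TGACGTCA, 1.79%) and an E-box (CACGTG, 7.15%) were found in none of the 3 windows. CCAAT, found in 37.4% of all promoters, began 120 bases before the start of Blnk and 7 bases after that of Tbr1. TATAAA, found in 13.6%, began 42 bases after the start of Car4. These letters are a description of the windows and show no bound factor.

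Levels are given in CPM, a gene's count relative to the library's total, after TMM scaling over all 19 libraries. Libraries held 22258159 to 66991576 counts, with 29271465 to 48377211 in the tTA- libraries, so that the tTA- libraries were not the shallowest. The smallest library was tTA+ SOR replicate 3 of experiment 2. Markers of hippocampal neurons fitted the tissue label: all 8 genes of that list (Slc17a7, Prox1 and Wfs1 among them) were detected in every library, and their summed level was 1742 to 2020 CPM in tTA-, 1635 to 2104 CPM in tTA+ libraries of experiment 2 and 1837 to 2121 CPM in experiment 1. The labels do not say that each library is a separate animal, so p-values measure only the spread between these samples.

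Car4 was at 18.7 and 15.3 CPM in the tTA- homecage libraries 1 and 2 and at 16.9 CPM in the tTA- SOR library 1. In the tTA+ libraries of experiment 2 it was at 51.3 and 59.3 CPM in the homecage and at 63.9, 57.6 and 58.8 CPM after SOR. In experiment 1 it was at 80.0, 82.7, 78.5, 80.4 and 90.4 CPM in the DN group, and at 73.0 (lowest), 81.8 (median) and 101 CPM (highest) in the controls. The 3 tTA- libraries lay lowest, the tTA+ libraries of experiment 2 in the middle and all experiment 1 libraries highest, with no overlap between these 3 sets. The mean was 17.0 ± 1.73 CPM (SD, n = 3) in tTA-, 58.2 ± 4.53 CPM (SD, n = 5) in tTA+ of experiment 2 and 83.5 ± 7.58 CPM (SD, n = 11) in experiment 1. The ratio of the means of tTA+ to tTA- in experiment 2 was 3.43, and the fitted log2 difference was 1.76 (SE 0.114).

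Blnk, the adaptor of Syk signalling, had the narrowest relative spread of the 5 genes in the tTA- libraries, at 5.02, 4.80 and 4.96 CPM (146, 201 and 232 counts). In tTA+ libraries of experiment 2 it was at 16.4 and 17.6 CPM in the homecage and at 21.8, 17.6 and 19.2 CPM after SOR. The DN libraries of experiment 1 held 19.2, 19.995, 18.6, 14.4 and 21.4 CPM, and the controls 17.4 (lowest), 19.7 (median) and 21.9 CPM (highest). The lowest of the 16 tTA+ libraries, DN replicate 4, was 2.86 times as high as the highest tTA- library. Means were 4.93 ± 0.115 CPM (SD, n = 3) in tTA-, 18.5 ± 2.10 CPM (SD, n = 5) in tTA+ of experiment 2 and 19.3 ± 2.11 CPM (SD, n = 11) in experiment 1. The fitted log2 difference by tTA in experiment 2 was 1.88 (SE 0.130).

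H60b, the NKG2D ligand, was nearly absent from the tTA- libraries, with 0 and 4 counts in homecage replicates 1 and 2 and 8 counts in SOR replicate 1. In the tTA+ libraries of experiment 2 it had 314 and 192 counts in the homecage (4.70 and 4.39 CPM) and 183, 76 and 179 counts after SOR (3.98, 3.78 and 3.94 CPM). In experiment 1 the DN libraries were at 2.34, 5.26, 4.04, 3.82 and 4.07 CPM (86 to 173 counts), and the controls at 2.34 (lowest), 3.20 (median) and 6.69 CPM (highest, 101 to 287 counts). Every tTA+ library thus lay far above every tTA- library, the lowest of 16 being 13.7 times the highest of 3. The 12 counts summed over the tTA- libraries correspond to 0.102 CPM, with an exact Poisson 95% interval of 0.0527 to 0.178 CPM that covers counting error only. For the library with a count of 0, and for the others, 3 counts would be 0.0642 to 0.103 CPM. Mean levels were 0.0889 ± 0.0858 CPM (SD, n = 3) in tTA-, 4.16 ± 0.375 CPM (SD, n = 5) in tTA+ of experiment 2 and 3.86 ± 1.27 CPM (SD, n = 11) in experiment 1. The fitted log2 difference of 5.35 (SE 0.422) was the widest of the 5 genes, and it rests on these few tTA- counts. It was 4.93 without tTA- homecage replicate 1, the library with 0 counts, and 6.29 without tTA- SOR replicate 1, the library with 8.

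The annotated span of H60b overlaps 6 other genes, including Raet1e, another NKG2D ligand gene on the same strand (chromosome 10, bases 22158569 to 22374139). Raet1e had 0 to 2 counts in any library, and no overlapping gene had more than 16 counts in any library. Of 1108 stretches of 50 bases in annotated H60b transcripts, 84 (7.58%) also occur in transcripts of other genes, all 84 of them in Raet1e. How reads common to both genes were assigned is not given in the sources used here, so the split between H60b and Raet1e is uncertain. The other 4 genes overlap no annotated gene, and the shared stretches were 0% of Car4 and of Pmaip1, 0.451% of Blnk and 0.146% of Tbr1.

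Tbr1, the T-box factor, was at 13.4 and 13.6 CPM in the tTA- homecage libraries and at 11.9 CPM in the tTA- SOR library. The tTA+ libraries of experiment 2 were at 41.0 and 43.7 CPM in the homecage and at 44.2, 28.7 and 34.4 CPM after SOR. The DN libraries of experiment 1 were at 39.6, 44.6, 42.7, 42.3 and 42.1 CPM, and the controls at 36.5 (lowest), 45.8 (median) and 54.5 CPM (highest). The lowest tTA+ library was SOR replicate 3, also the smallest library, and even there Tbr1 was 2.12 times its highest tTA- level. The means were 12.96 ± 0.908 CPM (SD, n = 3) in tTA-, 38.4 ± 6.67 CPM (SD, n = 5) in tTA+ of experiment 2 and 44.0 ± 4.998 CPM (SD, n = 11) in experiment 1. The fitted log2 difference by tTA was 1.63 (SE 0.150).

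Pmaip1, which encodes Noxa, is ENSMUSG00000024521.7, bases 66458533 to 66465565 of chromosome 18 on the plus strand, with 7 exons. It was at 1.24 and 1.41 CPM in the tTA- homecage libraries and at 2.01 CPM in the tTA- SOR library (36, 59 and 94 counts). In tTA+ libraries of experiment 2 it was at 6.84 and 5.36 CPM in the homecage and at 5.55, 6.42 and 6.02 CPM after SOR. In experiment 1 the DN libraries were at 3.37, 3.61, 4.89, 4.68 and 4.12 CPM, and the controls at 3.01 (lowest), 4.58 (median) and 8.07 CPM (highest). Of the 5 genes it had the smallest gap: its lowest tTA+ library, a control of experiment 1, was 1.499 times its highest tTA- library. Means were 1.55 ± 0.406 CPM (SD, n = 3) in tTA-, 6.04 ± 0.611 CPM (SD, n = 5) in tTA+ of experiment 2 and 4.68 ± 1.49 CPM (SD, n = 11) in experiment 1, and the fitted log2 difference by tTA in experiment 2 was 1.92 (SE 0.194).

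**Figure D1:**
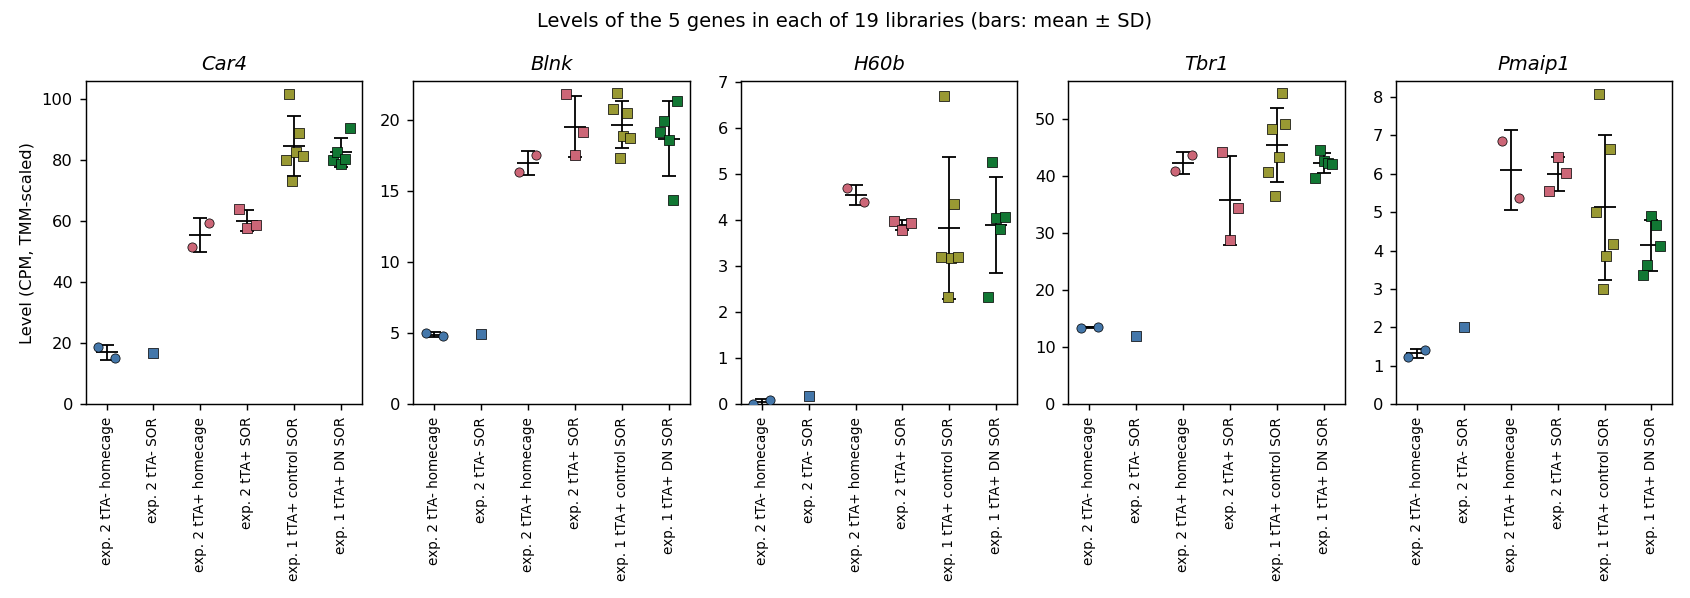
Level of each gene (vertical axis, TMM-scaled CPM, from 0) in each of the 19 libraries, by experiment, tTA genotype and exposure. Points are libraries, circles for homecage and squares for SOR, and bars give the mean and SD of groups with more than 1 library. For all 5 genes the 3 tTA- libraries lie below the 16 tTA+ libraries, and Car4 alone has all 11 experiment 1 libraries above the tTA+ libraries of experiment 2.

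In the contrast that chose the genes, 25 of 22904 genes tested (0.109%) were called higher in tTA+ at an edgeR adjusted p under 0.05, the 5 genes among them by choice, and 57 (0.249%) were called lower, 82 (0.358%) in all. With 1 library left out, the number called in all ran from 10 to 290. The 5 tTA+ libraries lay wholly above the 3 tTA- libraries for 525 of the 22904 genes (2.29%), again with the 5 among them. Just outside the 5 by rank were Hrk with a log2 difference of 0.99 (SE 0.108), Chrm5 with 1.77 (SE 0.195) and Vipr2 with 2.65 (SE 0.297). The fifth gene, Pmaip1, had 1.92 (SE 0.194). These values are descriptive, and the order of rank is not an order of size. All 5 genes passed the filter on low counts of each of the 3 comparisons. H60b passed it through the tTA+ libraries alone, where its counts were high.

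Experiment 1 libraries were not used by the choice, though the tTA- libraries they are set against were. All 11 experiment 1 libraries lay above all 3 tTA- libraries for 5 of the 5 genes, whereas this held for 1463 of 25866 genes (5.66%). That number was 2482 without tTA- SOR replicate 1 and 2640 without tTA- homecage replicate 2. All 16 tTA+ libraries lay above the tTA- libraries for the same 5 genes and for 153 of 25866 genes (0.592%). Among the 25 genes called higher in tTA+ it held for 24, or 96.0%, so the 5 genes share it with nearly all genes called in that direction. Experiment and tTA genotype cannot be told apart between experiment 1 and the tTA- mice, since no tTA- library was made in experiment 1.

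The level in experiment 1 was close to that in the tTA+ mice of experiment 2 for Blnk, with a ratio of means of 1.04, and for H60b, with 0.928. The ratio was 1.15 for Tbr1 and 0.774 for Pmaip1, with overlapping libraries. Car4 was the exception, at 1.44 times its level in the tTA+ mice of experiment 2, with every experiment 1 library above every tTA+ library of experiment 2. This was so for 1148 of 25866 genes (4.44%), while 1883 genes (7.28%) lay wholly below. The same held for Car4 when the 6 experiment 1 controls, at 84.4 ± 9.74 CPM (SD, n = 6), were set against the 3 tTA+/DN- SOR libraries of experiment 2, at 60.1 ± 3.39 CPM (SD, n = 3), which match them in genotype and exposure. For that pair of groups 2335 of 25866 genes (9.03%) lay wholly above and 2861 (11.1%) wholly below. The 2 experiments differ as wholes, so for Car4 the difference was left as a description.

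Per kilobase of annotated exon, a scale on which genes can be compared, Car4 was the most abundant of the 5 in every set: 8.63 CPM per kb in tTA-, 29.6 in tTA+ of experiment 2 and 42.5 in experiment 1. Tbr1 came next, with 2.36, 7.002 and 8.02 CPM per kb. H60b had 0.0733, 3.43 and 3.18 CPM per kb, and so moved from the lowest of the 5 in tTA- mice to close to Blnk, which had 0.822, 3.09 and 3.21 CPM per kb. Pmaip1 had 0.568, 2.21 and 1.71 CPM per kb. Among 25789 genes ranked by the level per length, Car4 stood at percentile 78.1 in tTA- and 93.7 in tTA+ mice of experiment 2, and H60b at 5.23 and 62.0. Blnk went from percentile 37.8 to 60.4, Tbr1 from 55.6 to 74.1 and Pmaip1 from 31.3 to 55.0. In experiment 1 the neighbours H60b and Blnk in this order did not differ beyond their spread.

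Within experiment 1, the DN and control groups addressed whether the dominant-negative Nr4A transgene changed expression in tTA+ mice after SOR. None of the 5 genes was called in edgeR's quasi-likelihood test (0 of 5, with 2 of 22391 genes, 0.00893%, called over the whole table). None had an unadjusted p under 0.05, and DESeq2 called none. Car4 was at 82.4 ± 4.71 CPM in DN (SD, n = 5) and 84.4 ± 9.74 CPM in controls (SD, n = 6), and its log2 difference was -0.04 with a 95% interval of -0.19 to 0.12. Blnk (18.7 ± 2.64 against 19.7 ± 1.66 CPM, SD) differed by -0.08 on the log2 scale (interval -0.26 to 0.10). For these genes the intervals bound the DN to control ratio to 0.878 to 1.08 for Car4 and 0.836 to 1.07 for Blnk. Tbr1 (42.3 ± 1.78 against 45.4 ± 6.48 CPM, SD) had a log2 difference of -0.10 and a ratio bounded to 0.818 to 1.06. The bounds were wider for the weakly expressed genes. For H60b (3.90 ± 1.04 against 3.83 ± 1.54 CPM, SD) the log2 difference was 0.02 and the ratio lay between 0.668 and 1.54. For Pmaip1 (4.14 ± 0.657 against 5.12 ± 1.89 CPM, SD) it was -0.31, with a ratio between 0.565 and 1.16. The edgeR adjusted p was 0.999 for each of the 5 genes, and in no gene did the DN and control libraries separate, which they did for 67 of 22391 genes (0.299%). Markers of choroid plexus, a tissue beside the hippocampus, had a negative log2 difference by DN in 8 of 8 cases (median -0.95, range -1.33 to -0.57), with 0 called and 0 at an unadjusted edgeR p under 0.05, and DESeq2 called 0. Their part in the DN values was not tested.

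Single control libraries bore on the Pmaip1 and Tbr1 values. Control replicate 2 of experiment 1 held the highest level of the 11 experiment 1 libraries for Car4, Blnk, H60b and Pmaip1. Without it the log2 difference of Pmaip1 was -0.13 (edgeR unadjusted p = 0.481) and that of Car4 was 0.02, and neither was called. Without control replicate 3 the difference of Pmaip1 was -0.43 (edgeR unadjusted p = 0.0451) and that of Tbr1 -0.16 (unadjusted p = 0.0224), both with an edgeR adjusted p of 0.974. The difference of Tbr1 was nearest to 0 without control replicate 5, at -0.044. Control replicate 2 also held the highest levels in experiment 1 of Arc, at 295 CPM (range 82.7 to 295), and of Nr4a1, at 51.5 CPM (range 19.8 to 51.5). These are activity-induced genes chosen for mention after their values were seen, and their part in the result was not tested.

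Exposure was compared in experiment 2, SOR against homecage, with tTA genotype in the model because 3 of 4 SOR but 2 of 4 homecage mice were tTA+. None of the 5 genes was called (0 of 5, with 11 of 22305 genes, 0.0493%, called over the whole table, all higher after SOR), none had an unadjusted p under 0.05 and DESeq2 called none. The log2 difference was 0.07 for Car4 (interval -0.16 to 0.30), 0.14 for Blnk (-0.12 to 0.40) and -0.22 for Tbr1 (-0.53 to 0.08). In tTA+ mice alone Tbr1 stood at 35.8 ± 7.82 CPM after SOR (SD, n = 3) and 42.4 ± 1.96 CPM in the homecage (SD, n = 2), with SOR replicates 3 and 4 below both homecage libraries and SOR replicate 2 above them. The difference of Tbr1 ran from -0.34 without SOR replicate 2 (edgeR unadjusted p = 0.0126, adjusted p = 0.351) to -0.13 without SOR replicate 3 (edgeR unadjusted p = 0.200), and it was called in neither fit. For H60b the difference was -0.04, with an SOR to homecage ratio bounded to 0.601 to 1.58, and for Pmaip1 it was 0.16, with a ratio bounded to 0.855 to 1.46. The edgeR adjusted p values of the 5 genes ran from 0.830 to 0.984. The choroid plexus markers leaned to the SOR side: 8 of 8 had a positive log2 difference (median 2.19), 5 at an unadjusted p under 0.05 and 0 called. The part of that tissue in the exposure values was not tested.

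**Figure D2:**
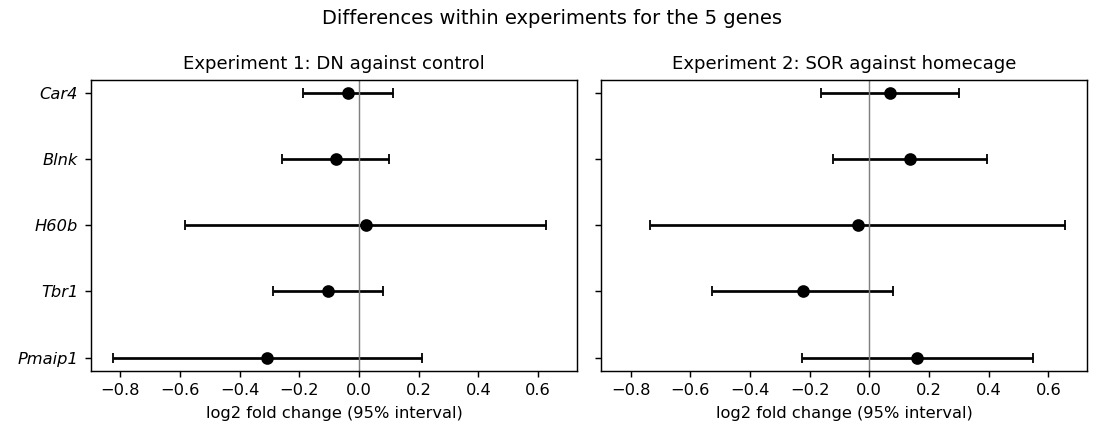
Log2 fold change of the 5 genes (horizontal axis) with 95% intervals, for DN against control in experiment 1 (left) and SOR against homecage with tTA in the model in experiment 2 (right). Every interval includes 0, with values from -0.31 for Pmaip1 to 0.02 for H60b on the left, and the intervals of H60b and Pmaip1 are the widest on both sides.

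Relatives of the 5 genes were then read in the tTA contrast, to see whether whole families were higher with them. Over the 5 families, 51 other genes were tested and 1 was called higher, 0 lower, with 7 at an unadjusted p under 0.05, which 1307 of all 22904 genes had (5.71%). The median log2 difference of the 51 was 0.02, beside 0.01 over all 22904 genes. DESeq2 called 1. In the DN contrast 48 others were tested, 0 were called by edgeR or DESeq2 and 3 had an unadjusted p under 0.05, against 3.83% of all genes. In the exposure contrast the same counts were 49, 0 and 3, against 6.01% of all genes.

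Of the carbonic anhydrases, 12 of 15 others were tested by tTA and 0 were called, with a median log2 difference of 0.03. The most abundant, Car2, a cytosolic enzyme of oligodendrocytes, was at 229 ± 10.4 CPM in tTA- (SD, n = 3) and 236 ± 33.3 CPM in tTA+ of experiment 2 (SD, n = 5). Those with an unadjusted p under 0.05 were Car7 (0.29), Car10 (-0.22) and Car12 (-0.83), and so did not share a direction. The bicarbonate transporters of the Slc4 family, which move the product of the enzyme across membranes, had 8 of 9 genes tested, 0 called, 2 at an unadjusted p under 0.05 and a median of -0.14. Over the 12 carbonic anhydrases the range was -0.83 to 0.42, beside 1.76 for Car4, which was chosen by its value.

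Around Blnk, 14 of 17 other genes of B cell receptor signalling (Syk, Btk, Lyn and their partners) were tested, and 0 were called by tTA. Plcg2, the phospholipase downstream of the adaptor, had -0.35 and Vav3, an exchange factor, -0.25, both at an unadjusted p under 0.05. The median of the list was 0.02 and its range -0.35 to 0.35. Markers of the cell types known for Blnk were read beside it. Of 8 microglial markers all were tested, 0 were called, 0 had an unadjusted p under 0.05 and all 8 were positive, with a median of 0.12. Their summed level was 354 to 393 CPM in tTA-, 377 to 425 CPM in tTA+ of experiment 2 and 341 to 383 CPM in experiment 1. Of 8 B cell markers 1 passed the filter on low counts and was tested, and it was not called. Their summed level was 11.96 to 14.1 CPM in tTA-, 8.51 to 12.04 CPM in tTA+ of experiment 2 and 8.90 to 15.3 CPM in experiment 1.

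For H60b, 3 of 7 other genes of the NKG2D list were tested and 0 were called, with 0 at an unadjusted p under 0.05 by edgeR. DESeq2 called 0 of them as well. Ulbp1, another ligand, had 0.69, the signalling adaptor Hcst 0.52 and the adaptor Tyrobp 0.06. Klrk1, which encodes the NKG2D receptor itself, had 0 to 4 counts in any library. Markers of T and NK cells passed the filter in 0 of 7 cases, and their sum was 0.150 to 0.310 CPM in tTA-, 0.149 to 0.366 CPM in tTA+ of experiment 2 and 0.117 to 0.353 CPM in experiment 1. Transcripts of the receptor and of these markers were therefore near the floor of detection in tTA- and tTA+ libraries alike.

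Among T-box factors other than Tbr1, 8 of 15 were tested by tTA and 0 were called, with a median of -0.06. Eomes, the factor that precedes Tbr1 in cortical neurogenesis, was at 0.962 ± 0.410 CPM in tTA- (SD, n = 3) and 1.75 ± 0.637 CPM in tTA+ of experiment 2 (SD, n = 5), and its log2 difference of 0.87 (SE 0.363) had an edgeR adjusted p of 0.813. Of 12 genes known as partners or targets of the TBR1 protein, 0 were called higher and 1 lower. The called gene was Ntng1, a synaptic adhesion protein, at 43.8 ± 6.10 CPM in tTA- (SD, n = 3), 22.001 ± 3.48 CPM in tTA+ of experiment 2 (SD, n = 5) and 23.2 ± 1.99 CPM in experiment 1 (SD, n = 11). Its log2 difference was -0.92 (SE 0.130, edgeR adjusted p = 0.0167). Markers of neocortical and subicular neurons, cells that express Tbr1 and border the hippocampus, had 12 of 12 tested, 0 called, 0 at an unadjusted p under 0.05, and a median of 0.05. Their sum was 299 to 318 CPM in tTA-, 287 to 330 CPM in tTA+ of experiment 2 and 294 to 345 CPM in experiment 1, so the groups overlapped.

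In the BCL2 family, which sets the threshold of mitochondrial cell death, 14 of 15 genes other than Pmaip1 were tested and 1 was called. That gene was Hrk, a BH3-only member of neurons, on chromosome 5 (bases 118164648 to 118189478, plus strand). Hrk was at 62.9, 62.4 and 61.1 CPM in the tTA- libraries, 108 to 137 CPM in the tTA+ libraries of experiment 2 and 96.0 to 117 CPM in experiment 1, so that all 16 tTA+ libraries lay above. Its log2 difference was 0.99 (SE 0.108, edgeR adjusted p = 0.00379). As with the 5 genes, Hrk was called neither by DN (-0.04, edgeR adjusted p = 0.999) nor by SOR (-0.06, edgeR adjusted p = 0.912). The other BH3-only genes did not move with it: Bbc3, which encodes the p53 target Puma, had 0.08 and Bik -1.04, neither called. The median of the 14 was 0.03. Of 16 p53 targets, 16 were tested, 0 were called and 0 had an unadjusted p under 0.05, with a range of -0.26 to 0.16. DESeq2 called 0 of the p53 targets by tTA.

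**Figure D3:**
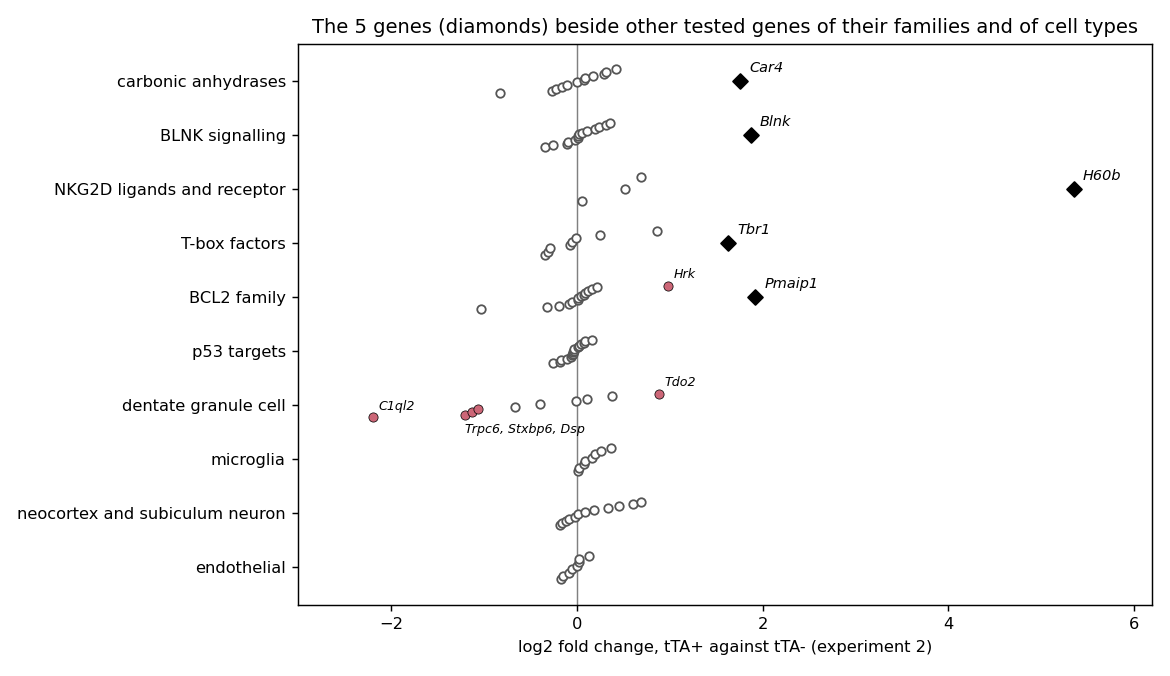
Log2 fold change of tTA+ against tTA- in experiment 2 (horizontal axis) for the 5 genes (black diamonds) and for the other tested genes of their families and of cell type lists (circles, 1 per gene). Filled red circles are genes called at an edgeR adjusted p under 0.05. The diamonds lie between 1.63 for Tbr1 and 5.35 for H60b, while 1 other family gene, Hrk at 0.99, was called higher.

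Markers of dentate granule cells, the principal neurons of the dentate gyrus, were read in the same contrast. All 10 were tested, 4 were called lower and 1 higher (over all genes 0.358% were called), 5 were not called, 7 had an unadjusted p under 0.05 and the list median was -0.53, beside 0.01 over all genes. C1ql2, a secreted synaptic protein of mossy fibres, was at 88.3 ± 6.66 CPM in tTA- (SD, n = 3), 19.7 ± 4.605 CPM in tTA+ of experiment 2 (SD, n = 5) and 13.4 ± 2.41 CPM in experiment 1 (SD, n = 11), with a log2 difference of -2.19 (SE 0.162, edgeR adjusted p = 3.16e-04). Trpc6 fell by 1.21, Stxbp6 by 1.13 and Dsp by 1.06 on the log2 scale, with edgeR adjusted p values of 0.00117, 0.0145 and 0.0191. Tdo2 rose by 0.88 (SE 0.107, edgeR adjusted p = 0.00656), and Prox1, the defining factor of these cells, had -0.67 (edgeR adjusted p = 0.350). The summed level of the list was 924 to 971 CPM in tTA-, 589 to 717 CPM in tTA+ of experiment 2 and 563 to 751 CPM in experiment 1, with no gene at 0. Markers of pyramidal neurons of the hippocampal fields CA1 and CA3 had 6 of 6 tested in each list and 0 called. Their sums in experiment 1 also lay below tTA-, at 397 to 464 against 544 to 593 CPM for CA1. For CA3 they were 140 to 152 against 197 to 202 CPM. In tTA+ of experiment 2 they overlapped tTA-, at 465 to 546 CPM for CA1 and 178 to 224 CPM for CA3. The part of the granule cell and pyramidal neuron markers in the levels of the 5 genes was not tested. Endothelial markers, cells known for Car4, had 8 of 8 tested and 0 called, with sums of 222 to 238 CPM in tTA-, 203 to 238 CPM in tTA+ of experiment 2, and 193 to 227 CPM in experiment 1. Choroid plexus markers had 3 of 8 positive by tTA, 0 called and 0 at an unadjusted edgeR p under 0.05, DESeq2 called 0, and their sums overlapped, at 377 to 1765 CPM in tTA- and 364 to 3782 CPM in tTA+ of experiment 2.

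Genes near the 5 on their chromosomes were read in the same contrast. Within 500 kb of each start, 16 genes were tested around Car4, 8 around H60b, 5 around Tbr1 and 4 around Pmaip1, and 0 of these were called, with 1 at an unadjusted p under 0.05, beside Tbr1. Around Blnk 13 were tested and 1 was called. That gene was Cc2d2b (chromosome 19, bases 40748753 to 40827743, plus strand), 101 kb from Blnk. Cc2d2b had 3, 12 and 8 counts in the tTA- libraries (0.103, 0.286 and 0.171 CPM), 18 to 52 counts in the tTA+ libraries of experiment 2 (0.727 to 1.17 CPM) and 20 to 58 counts in experiment 1 (0.509 to 1.28 CPM). Its counts were low, but all 16 tTA+ libraries lay above the tTA- libraries in CPM, as for Blnk. The log2 difference was 2.22 (SE 0.358, edgeR adjusted p = 0.0310). Neither DN (0.13, edgeR adjusted p = 0.999) nor SOR (-0.25, edgeR adjusted p = 0.871) moved it past the threshold. No gene near the 5 was called in either of those comparisons.

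Several of these calls in the tTA contrast depended on single libraries. With SOR replicate 1, 1 of the 3 tTA- libraries, left out, Hrk (1.02, edgeR adjusted p = 0.0771) and Trpc6 were no longer called, whereas C1ql2 was (-2.32, edgeR adjusted p = 0.0113). Ntng1, Stxbp6, Dsp and Tdo2 also lost the call without SOR replicate 1 or any 1 of the 4 homecage libraries. Cc2d2b lost it without any of those 5 libraries or SOR replicate 4. With the replicate number as a block, none of these genes was called, C1ql2 included (edgeR adjusted p = 0.419). Directions were kept in every one of these fits.

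Among the tTA+ libraries the 5 genes varied unequally, and not alike in the 2 experiments. The coefficient of variation over the 11 experiment 1 libraries was 9.08% for Car4, 10.9% for Blnk and 11.4% for Tbr1, and 33.0% for H60b and 31.9% for Pmaip1. Over the 5 tTA+ libraries of experiment 2 it was 7.79% for Car4, 9.02% for H60b, 10.1% for Pmaip1, 11.4% for Blnk and 17.4% for Tbr1, so that Tbr1 and not H60b varied most there. Each library was then centred on its own group of experiment, DN and exposure, on the log2 CPM scale with a prior count of 2. Control replicate 2 of experiment 1 deviated upward in all 5 genes, by 0.88 for H60b, 0.73 for Pmaip1, 0.27 for Car4, 0.16 for Blnk and 0.10 for Tbr1. Control replicate 3 deviated downward in all 5, with -0.62 for H60b, -0.68 for Pmaip1, -0.20 for Car4, -0.18 for Blnk and -0.30 for Tbr1.

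**Figure D4:**
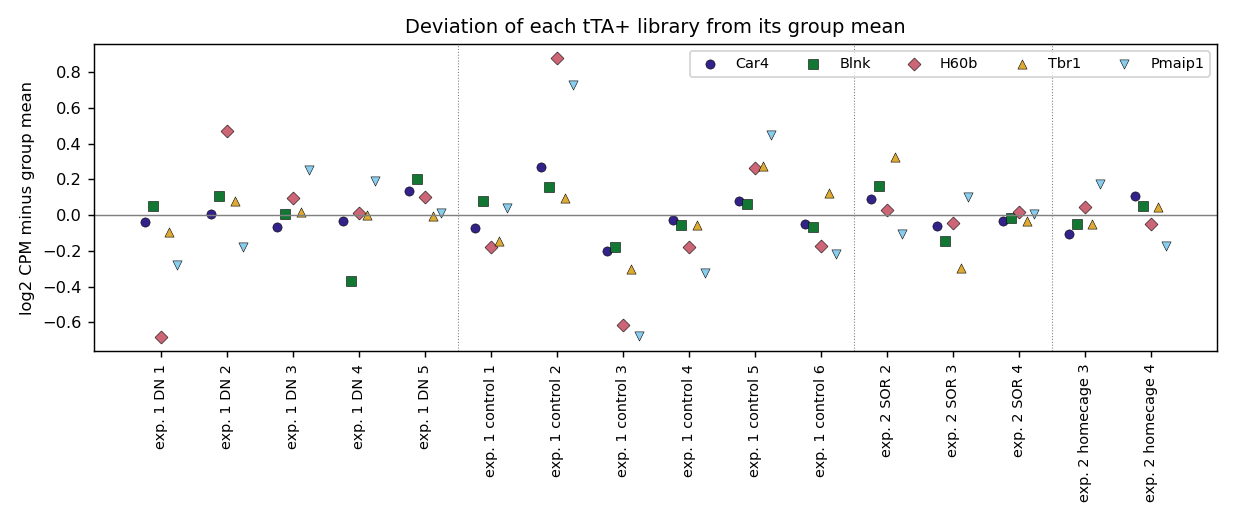
Deviation of each of the 16 tTA+ libraries from the mean of its group (vertical axis, log2 CPM) for the 5 genes, by library along the horizontal axis. Dotted lines part the groups. In experiment 1 H60b and Pmaip1 spread most: H60b ran from -0.68 in DN replicate 1 to 0.88 in control replicate 2 of experiment 1, and Pmaip1 from -0.68 in control replicate 3 to 0.73 in control replicate 2. In experiment 2 Tbr1 spread most, from -0.29 to 0.33, and H60b least, from -0.048 to 0.048.

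Over the 16 libraries, 5 of which had served to choose the genes, all 10 pairs of the 5 genes had a positive Pearson r, from 0.206 (Blnk and Pmaip1) to 0.771 (H60b and Pmaip1), with a median of 0.544. Spearman's rho ran from 0.153 to 0.682. Without control replicate 2 of experiment 1, a setting chosen after the values were seen, the median r was 0.458 and the lowest 0.0206, with 10 of 10 pairs positive, while rho was positive in 9 of 10 pairs and the lowest was -0.032. Without control replicates 2 and 3, the 2 libraries farthest from the median of Car4, r of Car4 and Pmaip1 went from 0.578 to -0.059 and that of Car4 and H60b from 0.714 to 0.307. These values are a description.

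The pairs were tested over the 11 libraries of experiment 1 alone, which the choice did not use, by two-sided permutation of libraries within the DN and control groups. Values were adjusted by Benjamini-Hochberg over the 10 pairs. All 10 were positive, with r from 0.288 to 0.800 and rho from 0.191 to 0.755. Of these, 2 pairs had an adjusted p under 0.05 for r and 0 for rho, against 5 and 4 at an unadjusted p under 0.05. H60b and Pmaip1 had r = 0.788 (permutation p = 0.00568, adjusted 0.0470) and rho = 0.755 (permutation p = 0.0138, adjusted 0.0688). Car4 and H60b had r = 0.800 (permutation p = 0.00940, adjusted 0.0470) and rho = 0.718 (permutation p = 0.0225, adjusted 0.0751). Leaving out the 2 libraries farthest from the median of the first-named gene, r was 0.657 for H60b and Pmaip1 and 0.670 for Car4 and H60b. For Blnk and Tbr1 it fell from 0.288 to 0.0050. Other genes reached values as high: of 25865 genes, 28 (0.108%) had an r with Car4 of at least that of H60b, itself included, and 51 (0.197%) had an r with H60b of at least that of Pmaip1, itself included. For Blnk with Tbr1 the share was 19.9%. The genes of a pair share each library's depth and scaling, whose part in these correlations was not tested.

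For each gene the 3 others with the highest Pearson r over the same 16 centred libraries were taken from 25866 genes, as a description. For Car4 these were Gm24362 (0.830), Fam174b (0.813) and Ccdc6 (0.790). The genes most like Blnk were Gm17048 (0.858), Chdh (0.849) and Odf3 (0.831), and those most like H60b were Adgrg1 (0.842), Gm38160 (0.824) and Gm16287 (0.805). Tbr1 had the highest values, with Sec24c (0.906), Foxk2 (0.878) and Rab6b (0.871). For Pmaip1 they were Mrps18a (0.8286), Dolpp1 (0.828) and Clec11a (0.827). None of the 5 genes was among the 3 most like another. Several of the genes named here were near the floor over the 16 libraries. Their mean levels were 0.118 CPM for Gm24362, 0.245 for Gm17048, 0.443 for Odf3, 0.510 for Gm38160 and 0.392 for Gm16287.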

How the data were processed

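RNA was measured in 19 libraries of dorsal hippocampus. Per the labels' protocols, Trizol was used for extraction and a TruSeq kit with Ribo-Zero Gold for the libraries. The authors deposited whole-number counts per gene, without normalization, as 1 table of 51789 versioned Ensembl identifiers. The submitters' processing notes name STAR, SAMtools 1.6, featureCounts 1.4.4 and the mm10 build. Their settings, the annotation and the use of strand are not given in the sources used here, so counts of overlapping genes are uncertain. Columns were matched to samples by name, and groups came from the labels. GENCODE M21 (GRCm38) held 51596 of the identifiers, 47611 in the same version, and 193 were absent.

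Counts were scaled by TMM, filtered by filterByExpr for each contrast and tested with edgeR 4.0.16 (quasi-likelihood F test, robust, two-sided, R 4.3.3) on each experiment alone: 22391 genes for DN, 22305 for SOR with tTA as covariate and 22904 for tTA with exposure as covariate. P-values were adjusted by Benjamini-Hochberg over all genes tested, and an adjusted p under 0.05 was the threshold of a call. Intervals are 95% intervals of the fitted log2 fold change. DESeq2 1.42.0, other scalings, filters and covariates, all libraries in 1 fit, and each library left out were alternatives. Over 37 pairs of libraries of 1 group, the chi-square per degree of freedom was 4.63 to 73.4, so none was counted as a repeat. Correlations used 100000 permutations over the 11 libraries of experiment 1, a choice made after the values over all 16 were seen.

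Simulated data held changes of 1 or 2 on the log2 scale. The test recovered 184 of 200 changed genes among 22118 for DN, with 8 false calls. For SOR it recovered 146 of 200 among 21942, with 6 false calls, and for tTA 142 of 200 among 22476, with 11. Of the changes of 1, it recovered 94 of 107 for DN, 67 of 108 for SOR and 58 of 107 for tTA. Smaller changes, such as the fitted DN and SOR differences of the 5 genes, were not simulated. The 5 genes, the gene lists and the alternatives were chosen with earlier results of these data known. The rule for naming other genes took up to 4 called genes per list and called genes within 500 kb of the 5. It also took the 3 genes most like each. Further genes in the text fall outside this rule and were named with their values known. Among these are Dsp, the called granule cell marker with the largest p, and uncalled genes such as Car12, Plcg2, Eomes, Bik and Prox1. Reads carry no molecular identifiers, and counting intervals cover counting error only.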

Additional observations from a re-analysis of the deposited data

How the results depend on the processing

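Tested differences of the 5 genes by DN and SOR gave 164 values under the alternatives. None was called, and 15 changed sign around 0. Of these, Car4 by SOR was -0.012 with the replicate number as a block, H60b was 0.30 and Tbr1 0.084 by SOR without the tTA covariate, and Pmaip1 was -0.041 by SOR in tTA+ mice alone. Leaving out each library gave -0.075 to 0.021 for Car4, -0.13 to 0.0054 for Blnk and -0.11 to 0.26 for H60b by DN, and -0.23 to 0.13 for H60b and -0.039 to 0.34 for Pmaip1 by SOR. The tTA difference stayed positive in all 74 values, from 1.55 for Tbr1 to 6.29 for H60b. Of the 74, 7 differed from the main value by more than the SD within groups. The 5 genes were chosen by this difference in the same libraries, so its sign is a description and no test. H60b and Cc2d2b could not be tested with at least 10 counts in every library. Genes called by DN numbered 2 under every alternative, the replicate block included. By SOR 11 were called, against 82 without a filter, 100 with DESeq2, 1 with the replicate block, 100 with all 19 libraries in 1 fit, 20 without the tTA covariate, 0 in tTA+ mice alone (374 at an unadjusted edgeR p under 0.05) and 1 to 48 with a library left out (48 without SOR replicate 3). By tTA 82 were called, against 265 without a filter, 253 with DESeq2, 0 with the replicate block (389 at an unadjusted edgeR p under 0.05), 388 with all 19 libraries, 944 in homecage mice alone and 10 to 290 with a library left out (10 without SOR replicate 1, 290 without SOR replicate 3). Genes with all experiment 1 libraries above the tTA- libraries numbered 1462 to 2640 with a library left out. The cause of these differences in number was not tested. Settings that leave libraries out also have fewer samples. Replicate numbers did not pair the libraries: correlations of same-numbered libraries ran from -0.05 to 0.19 in experiment 1 and from -0.50 to 0.41 in experiment 2, and 2 of 10 and 2 of 8 libraries correlated best with their own number. By DN, Pmaip1 ran from -0.43 to -0.13 and Tbr1 from -0.16 to -0.044 with a library left out, and by SOR Tbr1 from -0.34 to -0.13. Depth limits H60b in tTA- libraries, with 0 to 8 counts each.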
